A study of Mus musculus with 8 samples.

Results

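The core circadian clock loop was examined as 10 named genes in mouse brain, 3 activators (Clock, Arntl and Npas2) and 7 repressors (Per1, Per2, Per3, Cry1, Cry2, Nr1d1 and Nr1d2). The genes were taken by name as known parts of the loop, with earlier results of these data known, and all 10 were present among the 54532 genes of the count table. In the libraries labelled Nsun5 knockout (KO), the mRNA of all 7 repressors had higher mean levels than in wild type (WT), by 8.09% for Cry1 to 35.9% for Per2, while the activator means lay from 1.89% below (Npas2) to 8.92% above WT (Clock). None of these differences passed edgeR's test across all genes, and DESeq2 called 1, that of Nr1d2. Ribosome footprints on the same genes did not show the higher repressor values, but their intervals were wider and Per3 was not tested.

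The clock is a delayed feedback loop that runs in most cells. CLOCK, or its paralog NPAS2, pairs with the product of Arntl (BMAL1) and binds E-box sequences to switch on the Per and Cry genes and the Rev-erb genes Nr1d1 and Nr1d2. PER and CRY proteins then gather, enter the nucleus and block the activator pair. REV-ERB proteins repress Arntl through ROR elements, so that in a rhythmic tissue Arntl and the Rev-erb genes peak at opposite times of day. In the brain the suprachiasmatic nucleus sets the phase, and the other regions carry their own clocks.

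Ribosome profiling counts RNA fragments that ribosomes shield from nuclease. It was done on tissue labelled brain (whole brain in the series' design text) of 3-month-old male mice, 4 libraries labelled WT and 4 labelled Nsun5-KO, and the count table also holds an mRNA library under each library's name. Nsun5 encodes an RNA methyltransferase that modifies a cytosine of ribosomal RNA. The treatment notes name 5 mice of each genotype from 1 litter, anesthetized with pentobarbital before the brain was taken, with no time of day and no link from a library to an animal, so p-values measure the spread between libraries, which may be in part technical. Nsun5 itself had 82 to 109 mRNA counts in WT libraries and 83 to 124 in KO libraries, so its gene count does not check the labels, and directions below are between libraries as labelled. The mRNA libraries held 15642086 to 17829523 counts and the footprint libraries 586392 to 3493841. Footprint depth was mostly lower in KO, at 586392 to 1296876 counts against 1201263 to 3493841 in WT, with overlap through WT library 1. Of these, only 507, 1061, 733 and 853 fell on the 10 members in WT libraries 1 to 4. In KO libraries 1 to 4 the member counts were 214, 563, 129 and 271, and only KO library 2 exceeded a WT library (library 1). The summed mRNA of 7 neuronal markers was 5846 to 7448 CPM (counts scaled to library depth) in the 8 libraries, against 8.42 to 40.3 CPM for 4 liver and muscle markers, which were highest in KO library 1. WT libraries 1 and 2 stood apart from the other 6 on the first principal component of mRNA, at 28.4 and 27.0 against −15.9 to −5.80. That component held 29.9% of the variance, and the mRNA comparison is given with and without these libraries.

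The promoter windows of the loop are shown because the loop acts on itself through short motifs in them. RefSeq windows of 300 bases (build GRCm38.p6, the same assembly as mm10), from 250 bases before to 50 after a start site, were found for 9 of the 10 members, 13 windows in all, and none was in the table for Per2. The search covered both strands for the E-box CACGTG, the ROR element core AGGTCA, the D-box (TTATGTAA or TTACGTAA, bound by DBP, TEF and HLF) and the full CRE TGACGTCA, and no matches overlapped. The 5 windows printed here are those of a repressor with a match and the Arntl window with one, and capitals mark the matches.
Per1 (chr11:69098699-69098998, plus strand; an E-box, then the ROR core on the minus strand): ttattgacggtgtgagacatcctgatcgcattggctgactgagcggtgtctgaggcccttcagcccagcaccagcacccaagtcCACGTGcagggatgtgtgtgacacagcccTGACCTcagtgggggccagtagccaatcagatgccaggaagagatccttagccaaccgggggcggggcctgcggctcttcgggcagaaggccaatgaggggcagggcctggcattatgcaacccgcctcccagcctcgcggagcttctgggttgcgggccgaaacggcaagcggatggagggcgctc
Cry1 (chr10:85185005-85185304, minus strand; an E-box): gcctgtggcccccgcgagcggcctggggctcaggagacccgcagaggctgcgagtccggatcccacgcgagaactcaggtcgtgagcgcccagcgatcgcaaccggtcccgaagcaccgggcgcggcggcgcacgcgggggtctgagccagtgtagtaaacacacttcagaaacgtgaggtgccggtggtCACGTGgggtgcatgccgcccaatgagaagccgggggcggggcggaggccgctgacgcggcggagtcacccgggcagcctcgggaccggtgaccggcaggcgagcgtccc
Per3 (chr4:151044616-151044915, minus strand; a pair of D-boxes): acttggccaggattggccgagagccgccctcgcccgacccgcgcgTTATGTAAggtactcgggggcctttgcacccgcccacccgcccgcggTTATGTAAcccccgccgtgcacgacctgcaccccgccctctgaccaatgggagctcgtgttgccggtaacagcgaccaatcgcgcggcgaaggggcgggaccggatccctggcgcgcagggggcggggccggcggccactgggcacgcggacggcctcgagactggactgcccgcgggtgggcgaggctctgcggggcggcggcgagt
Nr1d2 (chr14:18239057-18239356, minus strand; the ROR core): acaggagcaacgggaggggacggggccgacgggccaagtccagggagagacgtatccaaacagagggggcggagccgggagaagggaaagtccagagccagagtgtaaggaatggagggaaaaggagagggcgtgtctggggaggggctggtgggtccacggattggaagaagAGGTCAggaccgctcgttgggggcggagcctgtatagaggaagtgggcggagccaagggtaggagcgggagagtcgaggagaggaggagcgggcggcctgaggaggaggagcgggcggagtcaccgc
Arntl (chr7:113207261-113207560, plus strand; the ROR core): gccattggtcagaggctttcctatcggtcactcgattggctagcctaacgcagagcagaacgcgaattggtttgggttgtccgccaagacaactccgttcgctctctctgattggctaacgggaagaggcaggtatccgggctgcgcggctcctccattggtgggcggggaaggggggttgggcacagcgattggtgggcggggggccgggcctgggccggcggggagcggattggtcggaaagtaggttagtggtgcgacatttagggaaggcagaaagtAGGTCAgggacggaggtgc

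The E-box stood at −166 to −161 in Per1 and at −60 to −55 in Cry1, counted from the start site at +1. It was thus present in 2 of 9 members (22.2%), beside 8.09% of 27025 genes with such windows. The ROR core was present in 4 members (Arntl, at 32 to 37 after the start, Nr1d2, Per1 and Clock; 44.4% against 18.1%), and the D-box in Per3 alone (11.1% against 1.23%). The full CRE was in no member window and in 2.03% of genes. These shares are per gene, and the members had 13 windows for 9 genes, against 32851 windows for 27025 genes. Of all windows 16.3% held the ROR core, 7.15% the E-box and 1.06% the D-box. These matches are letters in a window and do not show binding, and the windows of Npas2, Cry2 and Nr1d1 held none of the 4 motifs.

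Per length of gene model, Rev-erb mRNA was the most abundant of the loop in WT and Per3 mRNA the least. Levels are given here as the authors' RPKM (reads scaled to gene length and library depth), mean ± SD of the 4 WT libraries. Nr1d1 stood at 29.0 ± 6.82 RPKM and its paralog Nr1d2 at 21.8 ± 2.17, and their WT ranges overlapped. Cry2 (17.4 ± 2.50) and Per1 (15.03 ± 4.17) came next and overlapped each other, but not Nr1d2 above or Npas2 below. The activators lay in the middle, with Npas2 at 8.14 ± 1.09 and Clock at 7.91 ± 0.474, which overlapped. Cry1 followed at 5.45 ± 0.743, then Arntl at 4.21 ± 0.303 and Per2 at 3.59 ± 1.07, and the ranges of Arntl and Per2 overlapped. Per3, at 2.12 ± 0.185, lay below every other member, 13.7-fold under Nr1d1. Footprint RPKM in WT ran in a similar order from Nr1d1 (19.3 ± 4.12) and Cry2 (9.84 ± 2.09) down to Clock (1.15 ± 0.185) and Per3 (0.706 ± 0.209). In that order all neighbours from Cry2 to Clock overlapped.

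The question of the comparison is how transcript levels and translation differ without Nsun5, in a series that names sleep as a trait. Among the activators the groups overlapped for all 3 genes. All mRNA values that follow are CPM of the scaled library size (TMM, edgeR), in the order of libraries 1 to 4. Clock (ENSMUSG00000029238, chromosome 5, 76209868 to 76304792) had 116, 117, 106 and 104 CPM in WT and 113, 117, 134 and 119 in KO. The groups shared the range from 112.9 to 117.5 CPM. On the log2 scale KO was above WT by 0.12 ± 0.07 (SE, 4 libraries each, 95% interval −0.04 to 0.29, adjusted p by edgeR = 0.578).

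Arntl (ENSMUSG00000055116, chromosome 7, 113207465 to 113314126), the partner of both CLOCK and NPAS2, had 31.9, 33.6, 34.6 and 29.1 CPM in WT and 35.1, 28.6, 37.6 and 38.2 in KO. KO library 2 was the lowest of all 8 and the other 3 KO libraries were the highest, and the log2 fold change was 0.11 ± 0.10 (edgeR adjusted p = 0.740, interval −0.11 to 0.34). Npas2 (ENSMUSG00000026077, chromosome 1, 39193731 to 39363236), which can stand in for CLOCK in the forebrain, had 32.3, 44.7, 40.7 and 41.5 CPM in WT and 44.4, 29.5, 40.6 and 41.7 in KO. Here too KO library 2 was the lowest, next to WT library 1, and the log2 fold change was −0.03 ± 0.14 (edgeR adjusted p = 0.957, interval −0.33 to 0.27).

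The Per genes, whose proteins carry CRY into the repressor complex, had higher mean mRNA in KO. Per1 (ENSMUSG00000020893, chromosome 11, 69095217 to 69109960) had 57.1, 78.2, 99.1 and 111 CPM in WT and 107, 120.0, 128 and 103 in KO. WT libraries 1 and 2 were low, WT library 3 lay just under the KO range and WT library 4 within it. Per2 (ENSMUSG00000055866, chromosome 1, 91415982 to 91459324) had 20.3, 21.6, 14.3 and 29.6 CPM in WT and 30.3, 29.1, 31.2 and 26.1 in KO, so WT library 4 lay within the KO range and WT library 3 at 49.0% of the KO mean. Per3 (ENSMUSG00000028957, chromosome 4, 151003652 to 151044665) had 18.7, 21.0, 20.6 and 22.9 CPM in WT and 26.1, 30.5, 25.7 and 22.2 in KO, and the groups met at WT library 4 and KO library 4. The log2 fold changes were 0.40 ± 0.17 for Per1, 0.44 ± 0.18 for Per2 and 0.33 ± 0.11 for Per3, with edgeR adjusted p of 0.459, 0.442 and 0.390. Their 95% intervals ran from 0.02 to 0.79, from 0.05 to 0.83 and from 0.09 to 0.57. The gene span of Per3 lies wholly within that of Camta1 on the same strand in the count table. Camta1 had 299 ± 18.7 CPM in WT (SD, n = 4), and how reads in the shared span were assigned is not given in the sources used here.

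The cryptochromes block the activator pair directly, and groups were apart for Cry2 and interleaved for Cry1. Cry2 (ENSMUSG00000068742, chromosome 2, 92403646 to 92434043) had 93.8, 105, 124 and 127 CPM in WT and 138, 137, 134 and 132 in KO. Every KO library lay above every WT library, and the KO libraries were tightly grouped (coefficient of variation 2.00%, against 14.1% in WT). KO exceeded WT by 0.27 ± 0.09 on the log2 scale (SE, 95% interval 0.06 to 0.48, adjusted p by edgeR = 0.406). Cry1 (ENSMUSG00000020038, chromosome 10, 85131700 to 85185064) had 15.4, 19.6, 18.1 and 21.3 CPM in WT and 18.7, 22.8, 17.2 and 21.7 in KO, with both groups spread over the same range and a log2 difference of 0.11 ± 0.13 (edgeR adjusted p = 0.792, interval −0.16 to 0.39). Whether the changes of Cry1 and Cry2 differ was not tested.

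The Rev-erb genes, nuclear receptors that repress Arntl, had the lowest p of the loop in Nr1d2. Nr1d2 (ENSMUSG00000021775, chromosome 14, 18204054 to 18239127) had 111, 116, 118 and 137 CPM in WT and 148, 161, 148 and 145 in KO, without overlap. Its log2 ratio of KO to WT was 0.32 ± 0.08 (SE, 95% interval 0.15 to 0.49), with an unadjusted p of 0.00167 and an adjusted p of 0.337 by edgeR. By DESeq2, Nr1d2 passed over all genes (adjusted p = 0.0329) as the only member among the 75 of 13058 genes that DESeq2 called (0.574%). Nr1d1 (ENSMUSG00000020889, chromosome 11, 98767932 to 98775333) had 88.4, 90.4, 67.3 and 119 CPM in WT and 124, 137, 119.6 and 107 in KO, so that WT library 4 reached the KO range. The log2 fold change of Nr1d1 was 0.42 ± 0.15 (edgeR adjusted p = 0.406). Nr1d1 shares 1075 bases with Thra, a thyroid hormone receptor gene on the opposite strand. Thra was the more abundant at 626 ± 24.2 CPM in WT, had a log2 fold change of −0.07 ± 0.07, and cannot be told from Nr1d1 in those bases where reads carry no strand.

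**Figure D1:**
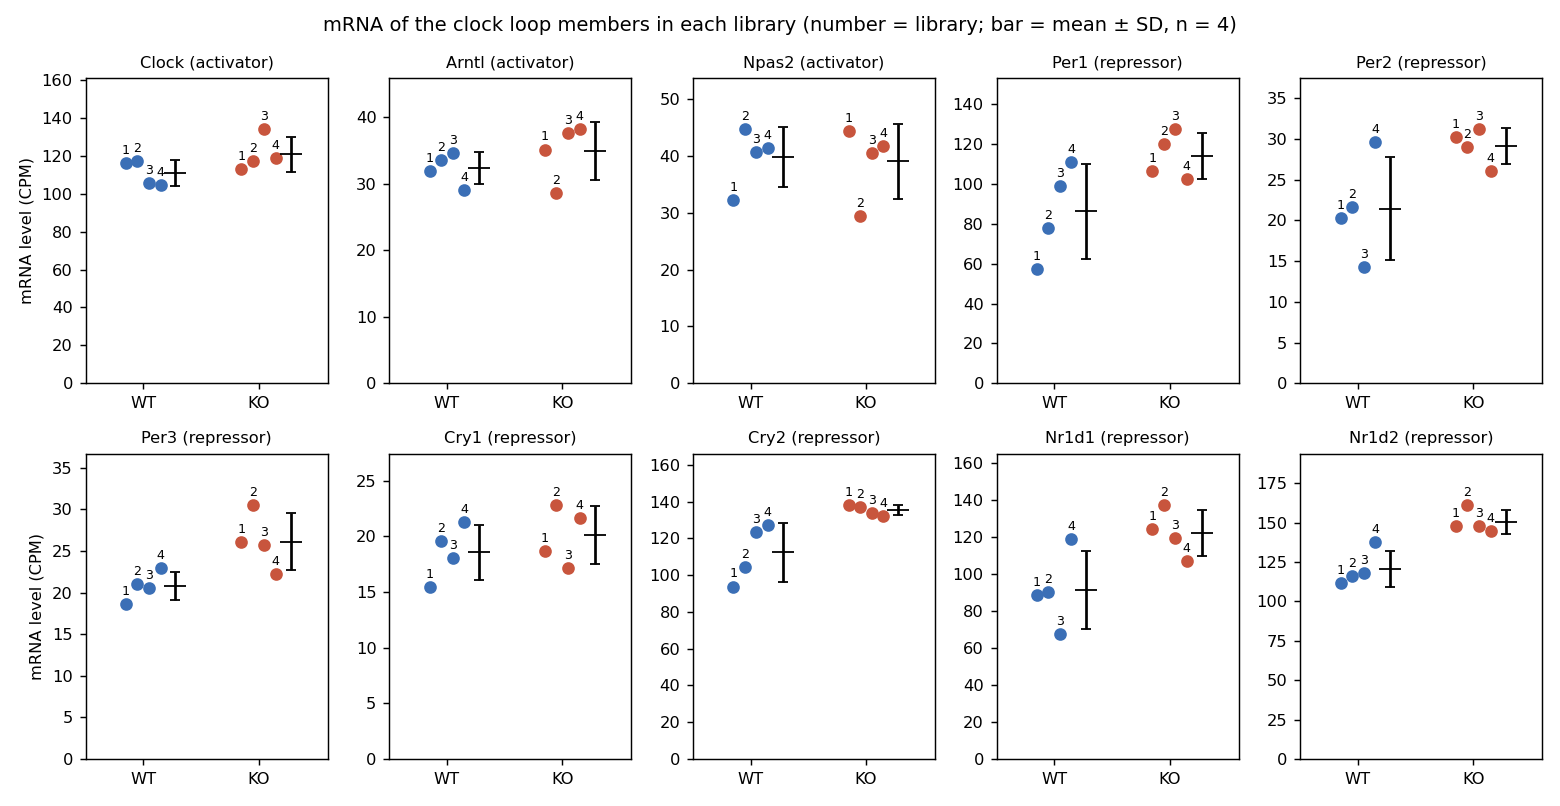
mRNA level in CPM of the 10 members in each library (points, numbered by library, blue WT and red KO), with the mean ± SD of 4 libraries beside them. For Cry2 and Nr1d2 every KO library lies above every WT library, and in all 7 repressor panels WT library 4 is the highest of the WT libraries.

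Read as a set, the members leaned one way in mRNA. By edgeR, 0 of 10 members passed an adjusted p under 0.05, beside 0% of all 13058 genes tested, and by DESeq2 1 did (Nr1d2). Positive log2 values were seen in 9 of 10 members, where 48.6% of all genes had one. At an unadjusted p under 0.05 (10.5% of all genes), 6 members were higher in KO (Per1, Per2, Per3, Cry2, Nr1d1 and Nr1d2) and 0 lower, where the background is 5.32% of all genes higher and 5.22% lower. The median log2 fold change was 0.33 for the 7 repressors and 0.11 for the 3 activators, against −0.01 for all genes. Groups did not overlap, with KO above WT, for 2 of 10 members and for 2.85% of all genes, and with KO below WT for 0 members and 2.74% of genes (5.59% either way). Since the members are coupled in 1 loop and come from the same 8 libraries, their counts are not independent.

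The differences of Per1 and Cry2 rested largely on WT libraries 1 and 2. Without these libraries the 7 repressors still had positive log2 values, but only 2 members, Nr1d2 and Clock, had an unadjusted p under 0.05 (7.74% of all genes did), and the median over the 10 members was 0.17 in place of 0.29. Per1 went from 0.40 to 0.12 ± 0.10 and Cry2 from 0.27 to 0.11 ± 0.06, more than 1.5-fold smaller. Nr1d1 (0.39 ± 0.20), Per2 (0.41 ± 0.24) and Nr1d2 (0.24 ± 0.08) moved less (edgeR adjusted p from 0.630 to 0.692). Without WT library 3 the value of Per2 was 0.29, and without WT library 4 the median over the members was 0.36.

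The repressors tended to be high or low in the same libraries. WT library 4 was the highest WT library for all 7 repressors and WT library 1 the lowest for 5. KO library 2 was the highest of all 8 libraries for Per3, Cry1, Nr1d1 and Nr1d2 and the lowest of all for Arntl and Npas2. Averaged over the 7 repressors, log2 CPM relative to the WT mean was −0.20, −0.01, −0.09 and 0.29 in WT, in library order, against 0.33, 0.46, 0.34 and 0.25 in KO. Averaged over the 3 activators it was −0.08, 0.11, 0.03 and −0.05 in WT against 0.11, −0.17, 0.18 and 0.14 in KO. Repressors minus activators therefore spanned −0.12 to 0.35 in WT and 0.11 to 0.63 in KO, and the groups overlapped through WT library 4. The time of day of each sample is not given in the sources used here, so differences in clock phase between libraries and between groups cannot be told apart from these values.

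**Figure D2:**
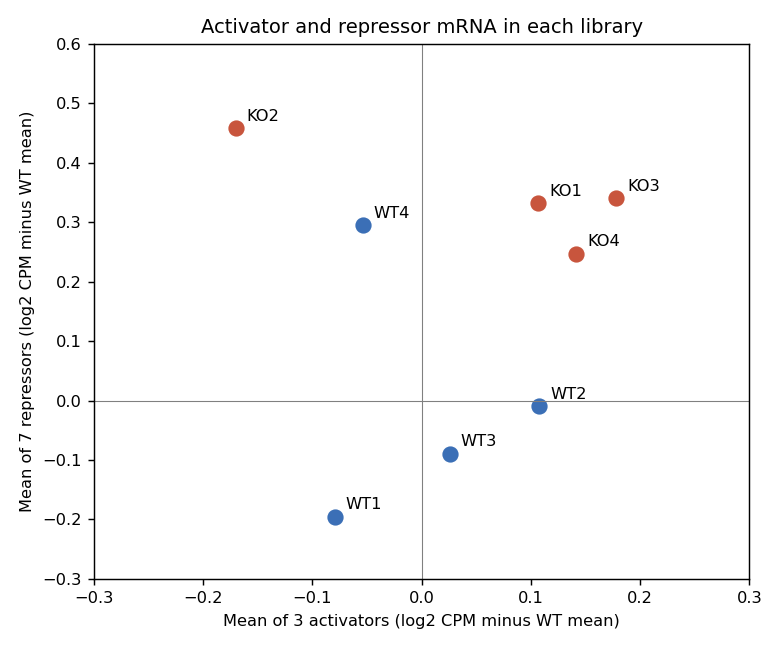
Mean log2 CPM of the 7 repressors (vertical axis) against that of the 3 activators (horizontal axis) in each mRNA library, both relative to the WT mean (blue WT, red KO). WT library 4 lies at the height of the KO libraries, and KO library 2 has the highest repressor mean (0.46) with the lowest activator mean (−0.17).

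Marker sums of several brain tissues differed between the same libraries, and their part in the clock values was not tested. Neuronal markers summed to 5846 to 6375 CPM in WT and 6843 to 7448 in KO. Of these 7 genes 6 were higher and 1, Gad2, lower. At an unadjusted edgeR p under 0.05, 4 were higher (5.32% of all genes) and Gad2 was lower (5.22%). All 8 cerebral cortex markers were higher in KO (481 to 724 CPM summed in WT, 660.0 to 846 in KO), and all 5 oligodendrocyte markers were lower (6233 to 6785 and 4031 to 5557 CPM). Of 12 hypothalamic and suprachiasmatic markers 6 passed the filter and 5 of these were lower, with sums of 45.2 to 176 CPM in WT and 43.0 to 64.2 in KO. Most of the sum in the KO libraries and WT library 4 was Vip, the 1 tested gene that was higher (36.0 ± 5.00 CPM, SD, in WT and 43.1 ± 6.29 in KO). The 5 lower genes were high in only some WT libraries. Avp, for example, had 14.9, 17.3, 43.0 and 0.572 CPM in WT and 2.33, 0.593, 0.374 and 0.228 in KO. Choroid plexus and ependyma markers were lower in 9 of 9 but spanned 329 to 1179 CPM in WT and 60.9 to 1188 in KO, and striatal markers in 9 of 9 with 441 to 2285 and 582 to 2158 CPM. Cerebellar markers (3 of 4 tested lower) summed to 78.5 to 141 CPM in WT and 54.9 to 70.5 in KO. That sum came mainly from Zic1, Zic2, Cbln1 and Car8. Pcp2, Gabra6 and Cbln3 did not pass the filter, with WT means of 0.336, 0.516 and 1.15 CPM and KO means of 0.154, 0.0313 and 0.870. Hippocampal markers (4 of 4 lower) summed to 20.9 to 72.5 CPM in WT and 21.6 to 45.3 in KO. Astrocyte (2 of 5 higher), microglia (1 of 4) and endothelial (1 of 3) sums overlapped between the groups. At the same unadjusted p, 5 cortex markers were higher. Lower at that p were 4 oligodendrocyte, 4 hypothalamic, 5 choroid plexus and ependyma, 2 cerebellar and 1 microglia marker. Astrocyte, endothelial, striatal and hippocampal lists had 0 either way. No list had a gene at 0 in all libraries. In such bulk tissue, fewer cells of a type and less RNA per cell cannot be told apart.

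In the rest of the pathway most lists had mainly higher values in KO, while partners and paralogs of the loop and immediate early genes were split. Of 10 output and side-loop genes 8 were higher in KO (48.6% of all genes were). Of them 4 had an unadjusted p under 0.05 (5.32% of all genes, higher in KO), none adjusted. These were Bhlhe40, a repressor that competes for E-boxes (109 ± 23.0 CPM, SD, in the 4 WT and 172 ± 19.5 in the 4 KO libraries), the D-box activators Hlf (log2 ratio 0.46 ± 0.12, SE) and Tef (346 ± 14.2 and 393 ± 2.41 CPM), and Ciart, a repressor of the CLOCK and BMAL1 pair (8.09 ± 3.64 and 12.3 ± 2.31 CPM). The groups did not overlap for Bhlhe40, Hlf and Tef (KO was above WT without overlap in 2.85% of all genes) and overlapped for Ciart. For Bhlhe40 they nearly met, at 142.1 CPM in WT library 4 and 142.7 in KO library 4. Of the ROR receptors, which activate Arntl through the element that REV-ERB proteins occupy, Rora (log2 fold change 0.34 ± 0.17) and Rorb (0.55 ± 0.17) were tested. Rorb, which is also a cortical layer gene, had an unadjusted edgeR p of 0.00923.

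Genes that act on PER and CRY proteins had mostly small differences. All 9 kinases and ubiquitin ligases had positive values (median 0.05), as 48.6% of all genes did, and 1 had an unadjusted p under 0.05 (5.32% of all genes, higher in KO). That was Csnk1e, a casein kinase that marks PER for decay (71.9 ± 6.16 CPM, SD, in WT against 84.4 ± 5.62 in KO). Next by p, on the log2 scale, were Csnk2a1 (0.06 ± 0.06) and Fbxl21 (0.23 ± 0.24). Of 6 tested partners and paralogs 3 were higher and 3 lower. Nono, a PER-associated RNA-binding protein, was lower without overlap (160 ± 7.68 and 142 ± 3.70 CPM), as 2.74% of all genes were. Next by p were Hdac3, the deacetylase recruited by REV-ERB (−0.12 ± 0.08), Cipc (0.12 ± 0.08) and Sirt1 (−0.13 ± 0.11).

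Activity-driven transcripts, which share CREB input with Per1 and Per2, showed no common direction. Of 9 immediate early genes 5 were higher and 4 lower, 0 at an unadjusted p under 0.05 by edgeR, and their summed level overlapped widely (649 to 1521 CPM in WT, 921 to 1579 in KO). The lowest p values belonged to Npas4 (log2 fold change −0.61 ± 0.31), Arc (0.52 ± 0.37), Egr1 (0.30 ± 0.24) and Dusp1 (0.11 ± 0.24). Of 5 CREB input genes 4 were higher, with Crtc1 (0.13 ± 0.08), Sik1 (0.20 ± 0.16), Creb1 (0.09 ± 0.08) and Crem (0.15 ± 0.15) first, and 0 at an unadjusted p under 0.05.

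Outside the loop, the transcripts whose log2 CPM over the 8 mRNA libraries followed the repressor mean most closely were Sgsm3 (Pearson r = 0.97), Pcsk2 (0.96), Klf10 (0.96), Myl4 (0.96) and Rnf145 (0.95). Among the repressors themselves r with that mean was 0.98 for Nr1d2, 0.92 for Per3, 0.90 for Nr1d1, 0.86 for Per1, Per2 and Cry2, and 0.65 for Cry1. The 5 most like the activator mean were Dlg2 (0.98), Trim9 (0.95), Taf1c (0.94), Htr1f (0.94) and Mkl1 (0.94). Arntl followed that mean at 0.91, Npas2 at 0.81 and Clock at 0.45. Each member is itself part of the mean it was compared with, which raises its r. The r values of members are therefore not comparable with those of the outside genes. The outside genes are the closest of 13058 over 8 libraries that also hold the genotype groups, and all these values are given as a description.

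Footprints on the members did not show the higher repressor values of mRNA. The footprint intervals of Nr1d1, Nr1d2 and Cry1 still included their mRNA log2 fold changes, and those of Per1, Per2 and Cry2 did not. Of the 9 members that passed the filter on low footprint counts, 3 had log2 values above 0 and 6 below, where 49.6% and 50.4% of all genes did. Their median was −0.07 (all genes, −0.0038). By edgeR 0 passed an adjusted p under 0.05 and 0 an unadjusted p under 0.05, beside 0% and 5.52% of 8476 genes (2.88% higher and 2.64% lower in KO), and DESeq2 called 0 members as well. No member had groups apart (3.61% of all genes did, 1.57% with KO above and 2.04% below). Per3, with 13, 32, 14 and 16 footprint counts in WT and 4, 20, 1 and 1 in KO, did not pass the filter on low counts and is not among the 9.

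Cry2 was among the members with the most footprints, 915 in all. It had 60.0, 85.3, 54.5 and 61.1 footprint CPM in WT and 47.6, 60.7, 34.6 and 50.0 in KO, so 3 KO libraries lay below the whole WT range and KO library 2 within it. On the log2 scale its footprints in KO stood at −0.40 ± 0.20 relative to WT (SE, interval −0.83 to 0.03, adjusted p by edgeR = 0.881). Nr1d1, with 907 footprints, had 76.5, 62.6, 44.6 and 66.0 CPM in WT and 53.8, 65.4, 63.4 and 70.7 in KO, and its footprint log2 fold change was 0.03 ± 0.19 (edgeR adjusted p = 0.994, interval −0.37 to 0.43). The KO libraries of Nr1d1 lay inside the WT range. Nr1d2 had 34.0, 31.3, 27.1 and 50.9 footprint CPM in WT and 18.3, 35.4, 32.7 and 41.2 in KO, a log2 fold change of −0.15 ± 0.27.

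Per1 had 28.9, 40.0, 42.8 and 55.8 footprint CPM in WT and 42.8, 44.3, 36.5 and 26.5 in KO, with 3 of 4 KO libraries inside the WT range (log2 fold change −0.15 ± 0.24). Per2 had 6.80, 16.1, 14.3 and 19.2 footprint CPM in WT and 10.99, 7.92, 13.5 and 3.93 in KO, from 12, 52, 39 and 51 counts and 9, 15, 7 and 4 counts. All 4 KO libraries of Per2 lay below the WT mean and 1 below the WT range, and the footprint log2 fold change was −0.74 ± 0.43 (edgeR adjusted p = 0.881, interval −1.67 to 0.20). Cry1 had 19.8, 22.0, 8.42 and 6.78 footprint CPM in WT and 14.7, 19.0, 7.69 and 9.81 in KO, with high and low libraries in both groups (log2 fold change −0.07 ± 0.45).

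Activator footprints were near equal in the group means, with wide intervals. Clock had 15.9, 20.5, 15.4 and 14.7 footprint CPM in WT and 24.4, 15.8, 9.61 and 17.7 in KO. Arntl had 30.0, 23.3, 32.2 and 23.7 footprint CPM in WT and 25.7, 18.5, 30.8 and 32.4 in KO, and KO library 2 was again the lowest. Npas2 had 7.93, 18.0, 23.8 and 17.3 footprint CPM in WT and 18.3, 19.5, 17.3 and 12.8 in KO, and WT library 1 was the lowest, as it was the lowest of WT in Npas2 mRNA. The footprint log2 fold changes were 0.04 ± 0.31, −0.06 ± 0.25 and 0.01 ± 0.35 (edgeR adjusted p from 0.991 to 0.997). The interval of Arntl, the narrowest of the 3, ran from −0.59 to 0.47.

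**Figure D3:**
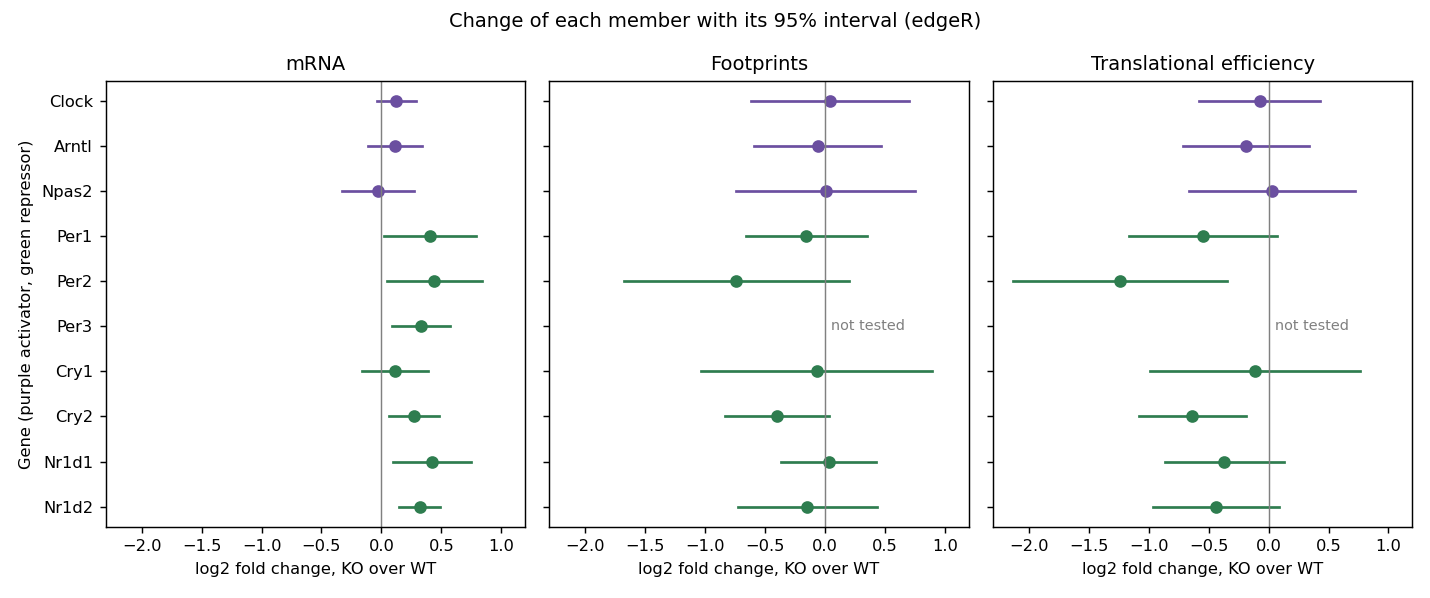
log2 fold change, KO over WT, of each member with its 95% interval from edgeR, for mRNA (left), footprints (middle) and translational efficiency (right), activators in purple and repressors in green. In mRNA the intervals of 6 repressors lie above 0, in footprints all 9 cross 0, and in translational efficiency those of Per2 and Cry2 lie below 0.

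The members differed widely in how many footprints they carried per mRNA. Ratios of footprint to mRNA CPM from group means were set against the median of the 9673 genes tested for translational efficiency. Percentiles and the ratios of single libraries were taken against 9454 protein-coding genes. In WT the ratio of Arntl was 1.78 times that of the median gene (85.7th percentile), Cry1 1.62, Nr1d1 1.44 (75.1st), Per2 1.39, Cry2 1.23 and Per1 1.02. Npas2 (0.889), Nr1d2 (0.627) and Clock (0.316) lay below the median gene. Clock and Arntl, which encode the partners of 1 dimer, thus stood at opposite ends, and the WT libraries did not overlap, with 0.294, 0.380, 0.316 and 0.309 for Clock and 2.02, 1.51, 2.02 and 1.79 for Arntl. KO showed the same order for this pair (0.297 and 1.64). The paralogs Nr1d1 and Nr1d2 were apart as well, 1.86, 1.51, 1.44 and 1.22 against 0.656, 0.589, 0.499 and 0.813 in WT. The mRNA count covers the whole gene model, 13727 bases for Clock and 3077 for Nr1d1, while footprints come mainly from the coding part. A long untranslated part therefore lowers this ratio.

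Translational efficiency, the footprint change relative to the mRNA change, had negative values for all 6 repressors tested and for 8 of 9 members, where 50.2% of all genes were negative and 49.8% positive. The median log2 change of those 6 was −0.49, against −0.07 for the 3 activators and −0.0027 for all 9673 genes. By edgeR 0 of 9 members passed an adjusted p under 0.05 (0% of all genes), and DESeq2, which called 1.55% of genes, called 0 members. Cry2 (−0.64 ± 0.22, SE, edgeR adjusted p = 0.288) and Per2 (−1.24 ± 0.43, adjusted p = 0.307) had an unadjusted p under 0.05, lower in KO, as 5.67% of all genes did, and 0 members were higher (5.21% of genes). Per1 followed with −0.55 ± 0.30, then Nr1d2 (−0.44 ± 0.25), Nr1d1 (−0.37 ± 0.24) and Cry1 (−0.11 ± 0.42), all with intervals across 0. These values share their mRNA libraries with the mRNA comparison and are not separate evidence from it.

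The ratio per library shows where these values come from. For Per1 it was 1.09, 1.11, 0.938 and 1.10 in WT and 0.915, 0.806, 0.664 and 0.579 in KO, the 1 member whose groups did not overlap (2.12% of all genes had KO below WT without overlap and 2.36% KO above). For Cry2 it was 1.38, 1.78, 0.958 and 1.05 in WT and 0.786, 0.966, 0.599 and 0.846 in KO, overlapping at WT library 3 and KO library 2. For Per2 it was 0.721, 1.62, 2.17 and 1.43 in WT and 0.828, 0.595, 1.0001 and 0.337 in KO, with WT library 1 inside the KO range. Without WT libraries 1 and 2 the translational efficiency change of Cry2 was −0.29 ± 0.21, that of Per2 −1.41 ± 0.49 and that of Cry1 turned to 0.87 ± 0.41. Cry2 then no longer had an unadjusted p under 0.05, which left 1 member lower (Per2) and 1 higher (Cry1). Over all genes 796 of 9648 had an unadjusted edgeR p under 0.05 in that run. Whether a footprint library and the mRNA library of its name hold the same tissue is not given in the sources used here. Cortex markers, higher in KO mRNA, were lower in KO footprints in 6 of 8 genes. Neuronal markers, 6 of 7 higher in KO mRNA, were lower in footprints in 6 of 7. Striatal markers, 9 of 9 lower in KO mRNA, were higher in footprints in 6 of 8 tested. Hypothalamic markers, mostly lower in mRNA, were higher in footprints in 2 of 3 tested. Oligodendrocyte markers were lower in both kinds of library (5 of 5). Whether these differences bear on the clock ratios was not tested.

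**Figure D4:**
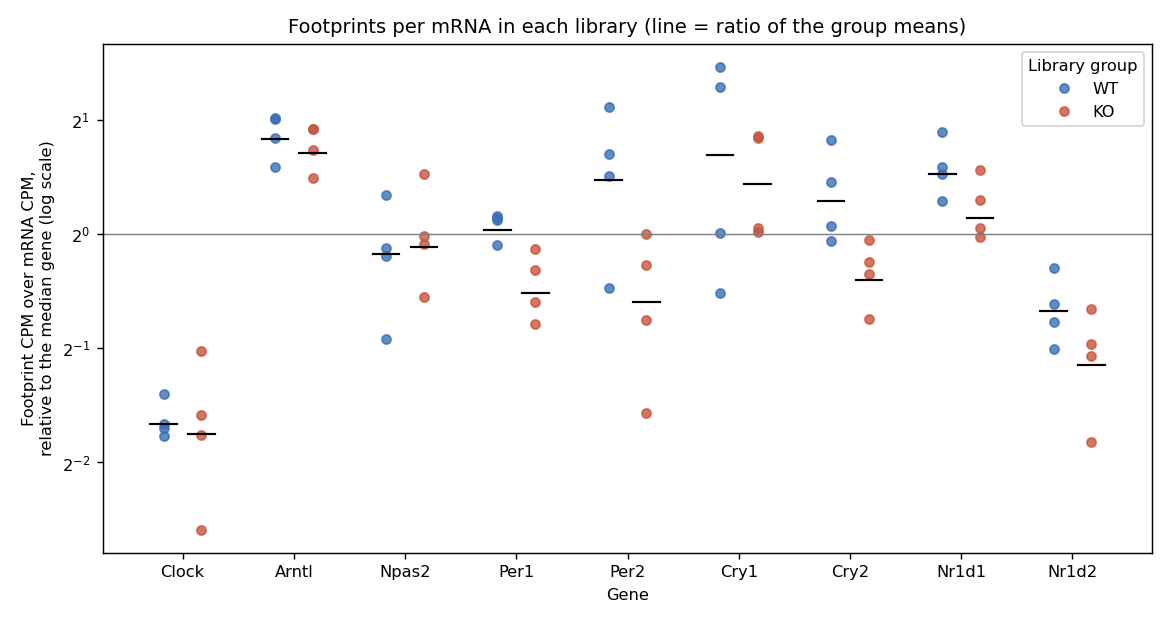
Footprint CPM over mRNA CPM of 9 members in each library (blue WT, red KO), relative to that library's median protein-coding gene, on a log axis. Lines mark the ratio of the group means, relative to the median of all 9673 genes tested. Clock lies lowest (0.316 in WT) and Arntl highest (1.78), and for Per1 all KO points lie below all WT points.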

How the data were processed

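Ribosome footprints and mRNA of tissue labelled brain were measured in 8 libraries each (4 WT, 4 KO). The deposited gene table holds raw counts, and the authors' other tables hold RPKM. The submitters' processing notes name TopHat2 and mm10 without a role, and the counting program, annotation and strand setting are not given in the sources used here. All columns of the tables were matched to libraries by group and number. For mRNA, genes averaging 1 RPKM or more were tested. For footprints, filterByExpr (minimum count 10) chose the genes, and translational efficiency, the interaction of genotype and library kind, needed an average of 1 RPKM in mRNA and in footprints. The test was edgeR's quasi-likelihood test (version 4.0.16, R 4.3.3) after TMM scaling. Benjamini-Hochberg adjusted p under 0.05 over all genes was the threshold. Positive log2 values mean higher in KO. The scripts were tested on simulated data.

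The members, gene lists and tests were chosen with earlier results of these data known. All members were named, and up to 4 genes of each pathway list by lowest mRNA p. A gene that this rule would name is not reported here. Most like genes were the 5 with the highest r, predicted genes left out. Alternatives were DESeq2 1.42.0, other scalings and filters, limma 3.58.1 and voom, a replicate block, and leaving out libraries.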

Additional observations from a re-analysis of the deposited data

How the results depend on the processing

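The mRNA log2 fold changes of the 7 repressors stayed positive in every alternative run, from 0.03 for Cry1 without WT libraries 1 and 2 to 0.64 for Per2, and so did those of Clock and Arntl, while Npas2 ran from −0.12 to 0.09. DESeq2 called 1 member in mRNA where edgeR called 0, and no other alternative called a member in any of the comparisons. Members with an unadjusted p under 0.05 in mRNA fell from 6 to 2 without WT libraries 1 and 2, and leaving out each library in turn gave 4 to 6. In footprints that count was 0, and 1 with a replicate block (357 of 8476 genes), 1 with no filter (1224 of 22286) and 0 to 1 with a library left out. In translational efficiency it was 2, and 2 to 3 with a library left out. Without WT libraries 1 and 2 it was 2 again, but 1 higher (Cry1) and 1 lower (Per2). The replicate block left 6 members in mRNA (991 of 13058 genes) and 2 in translational efficiency (859 of 9673). With a library left out, 913 to 1606 of all genes had an unadjusted p under 0.05 in mRNA (13041 to 13083 tested). The same count was 367 to 643 in footprints (8623 to 9098 tested) and 801 to 1139 in translational efficiency (9659 to 9706 tested). The labels do not say that numbers pair the libraries, and deviations of same-number libraries correlated at −0.24 to 0.03 in mRNA and −0.25 to 0.07 in footprints. Per3 footprints, left out by the main filter, entered the fit with no filter and with WT library 3 or 4 or KO library 1, 3 or 4 left out. Plain library totals moved the footprint median of all genes to −0.15 and turned the 3 members above 0 negative, Clock (−0.16), Nr1d1 (−0.17) and Npas2 (−0.0024), which left 0 above 0. The cause of these moves was not tested, and the runs with libraries left out also had fewer libraries. Over all genes, the main edgeR runs called 0 in each comparison. DESeq2 called 75 in mRNA, 4 in footprints and 150 in translational efficiency, and edgeR without a filter 24 in mRNA and 86 in footprints. The other edgeR runs called at most 4, in translational efficiency without KO library 2. Footprint changes were less precise than mRNA changes: log2 changes of members had standard errors of 0.19 to 0.45, against 0.07 to 0.18 in mRNA.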
